A study of Homo sapiens with 16 samples.

Results

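The regions described here are the coding exon intervals away from promoters: intervals of the deposited count table on chromosomes 1 to 22 and X that overlap coding sequence of a protein-coding gene in GENCODE release 44 and lie more than 1 kb from every annotated transcript start, with the YAP1 gene left out. This rule uses position only, and it took 1992 of the 74404 intervals, in 1756 genes. CUT&Tag, which directs a Tn5 transposase to an antibody on nuclei so that nearby DNA is cut, tagged and sequenced, was run on HEK293, a human embryonic kidney cell line, of genotype eGFP-YAP. That genotype was common to all 8 groups, which received either vehicle or 200 mM sorbitol for 1 h. The labels say that untreated samples were collected in parallel, but the column names of the table give vehicle the time 0 h. Time may therefore differ together with treatment, and could then not be told apart from it. The targets were CTCF, RAD21, H3K27ac and eGFP-YAP, the last read with a GFP antibody and called YAP1 here, with 2 vehicle and 2 sorbitol libraries each, 16 in all. The labels do not say that replicates came from separate cultures, so p-values measure only the spread between these libraries, nor do they say whether the cells are 1 clone.

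Coding exons are the parts of a gene that are spliced together and translated, and protein-coding sequence is on average richer in G and C than the introns around it. CTCF is a zinc finger protein that binds a long DNA motif and halts cohesin, the ring complex of which RAD21 is a subunit, at the anchors of chromatin loops. YAP1 is a transcriptional coactivator of the Hippo pathway that reaches DNA through TEAD factors, mostly at enhancers, and H3K27ac is an acetylation of histone H3 found at active promoters and enhancers. Sorbitol draws water out of cells, a hyperosmotic stress.

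The coding sequences below show what lies under the strongest responders. They come from hg38, are written 5′ to 3′ on the gene's strand, hold coding sequence only, and have every CG dinucleotide in capitals. The first of each pair is from the largest rise and the second from the largest fall for CTCF, RAD21, YAP1 and H3K27ac, in that order, among called members whose mean level was above the median of tested intervals and whose groups did not overlap. Larger fitted changes at lower counts were left aside by that limit, such as the CTCF fall at EBPL and the RAD21 fall at KIAA1671. For H3K27ac the second of these rises stands in, because the coding part of the first (ACOT7) is untranslated in another transcript.
TMEM151B, chr6:44275876-44275995, + strand: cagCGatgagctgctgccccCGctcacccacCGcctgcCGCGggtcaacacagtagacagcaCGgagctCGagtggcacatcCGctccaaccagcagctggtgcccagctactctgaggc
TTC21A, chr3:39126342-39126390, + strand: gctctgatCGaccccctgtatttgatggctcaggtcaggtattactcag
TUBB4B, chr9:137242870-137242989, + strand: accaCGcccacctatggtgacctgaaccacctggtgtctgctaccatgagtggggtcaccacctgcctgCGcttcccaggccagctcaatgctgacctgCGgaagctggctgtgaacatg
EVPL, chr17:76014441-76014560, - strand: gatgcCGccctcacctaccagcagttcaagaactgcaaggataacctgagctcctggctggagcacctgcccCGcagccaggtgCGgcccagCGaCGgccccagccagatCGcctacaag
EGR1, chr5:138467087-138467206, + strand: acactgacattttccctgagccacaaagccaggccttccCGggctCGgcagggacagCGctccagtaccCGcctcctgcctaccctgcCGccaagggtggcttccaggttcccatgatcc
REM2, chr14:22886844-22886906, + strand: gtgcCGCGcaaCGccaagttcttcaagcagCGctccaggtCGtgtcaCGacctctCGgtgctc
PLEKHM3, chr2:207930963-207931082, - strand: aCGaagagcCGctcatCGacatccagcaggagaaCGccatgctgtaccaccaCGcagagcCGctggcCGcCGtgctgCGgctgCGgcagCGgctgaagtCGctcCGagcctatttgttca
SAMD11, chr1:935853-935896, + strand: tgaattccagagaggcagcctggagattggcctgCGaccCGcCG
A ninth stretch shows a CTCF consensus match inside an exon, chosen after its values were seen. The capitals mark the match, which has 1 mismatch.
DMRT1, chr9:893925-893984, + strand: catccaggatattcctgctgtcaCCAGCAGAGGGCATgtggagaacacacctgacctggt

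Most genes had a single member: 1560 of the 1756. The members were 200 to 2442 bp wide with a median of 430.5 bp, of which a median of 120 bp was coding. Only 183 were coding throughout, 496 were coding over at least 50% of their length, and 845 also held untranslated sequence. They lay a median of 4577 bp from the nearest start. Chromosome 19, a small and gene-dense chromosome, held 194 of them, or 9.74% of members against 4.08% of all intervals on these chromosomes, and chromosome 17 held 143. The median GC content was 57.1% for members, 50.2% for intronic intervals over 1 kb from a start and 61.6% for intervals within 1 kb of a start. The observed to expected ratio of CG dinucleotides followed the same order, at 0.317, 0.228 and 0.672.

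The CTCF consensus, searched as its standard 14-base form on both strands with at most 1 mismatch, was present in the central 200 bp of 22.6% of members. The same window held it in 13.6% of the 28090 intronic intervals, in 7.18% of the 25148 intervals near starts and in 13.1% of all intervals. Among the 1035 untranslated exon intervals over 1 kb from a start the share was 23.8%, so the member share is not particular to coding exons. These shares describe letters in a window and not bound sites. Another 118 members had a near-identical copy elsewhere in hg38, at 95% identity or more over at least 80% of the interval. All 10 members in NBPF genes, all 11 in TBC1D3 genes and both in UPK3BL1 and UPK3BL2 were among them, so reads there may have been shared between copies. The rule's 1 kb limit did not fall at a step in the vehicle signal: the 246 members at most 500 bp beyond the limit had a median H3K27ac level of 7.52 CPM per kb (CPM, counts per 1000000 on TMM-scaled library sizes), and the 410 coding intervals at most 500 bp short of it had 9.40.

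Library totals ran from 1187939 to 8842656 counts. The intervals off chromosomes 1 to 22 and X or in the YAP1 gene, 429 in number, took from 2.75% of the counts of the H3K27ac sorbitol group to 70.2% of those of the YAP1 sorbitol group, and they rose from 22.3% to 46.7% for CTCF. Replicates correlated less well for RAD21 (Pearson r across intervals of 0.745 in vehicle and 0.738 in sorbitol) and for YAP1 in sorbitol (0.739) than for CTCF and H3K27ac (0.873 to 0.968). As a check of the label, intervals at starts of all 6 HEK293-associated genes examined carried H3K27ac, from 6.18 CPM at NEFM to 152.5 at VIM in vehicle. None of the blood or liver markers PTPRC, CD3E, ALB and APOA1 had an interval there. Of 5 colon markers, CDX2 stood at 155 CPM and EPCAM at 12.3, and VIL1, KRT20 and LGALS4 had no interval.

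In both vehicle libraries members carried more CTCF per length than introns or intervals near starts. For the medians that follow, CPM was taken on each library's raw total without the left-out intervals, and not on TMM-scaled sizes. Differences between vehicle and sorbitol on this raw scale are therefore not comparable with the log2 fold changes below. The median level was 19.8 and 18.9 CPM per kb in the 2 vehicle libraries, and 11.6 and 12.0 in sorbitol. In vehicle it was 7.58 and 7.34 at introns and 10.6 and 10.1 near starts. RAD21 at members was 15.6 and 12.4 CPM per kb in vehicle and 8.45 and 8.02 in sorbitol. YAP1 was 7.84 and 7.44 in vehicle and 7.90 and 6.80 in sorbitol on this scale. H3K27ac was low, at 5.04 and 5.11 in vehicle and 7.33 and 7.09 in sorbitol. Introns were slightly above it in each library, at 5.52 and 5.47 in vehicle and 7.66 and 7.53 in sorbitol, and intervals near starts had 21.3 to 23.9. On TMM-scaled library sizes, the highest CTCF levels in vehicle were 176 and 165 CPM per kb, at UPK3BL2 and UPK3BL1. These are uroplakin-like genes that are near copies of each other. For H3K27ac the highest on the TMM scale were at ZNF703, a zinc finger gene, with 125, and at RBM15, an RNA-binding protein gene, with 112.

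The members' share of the CTCF counts was 3.32% and 3.11% in the vehicle libraries and 2.73% and 2.85% in the sorbitol libraries, of all counts on chromosomes 1 to 22 and X outside the YAP1 gene. The share of RAD21 counts was 2.04% ± 0.264 in vehicle and 1.62% ± 0.0577 in sorbitol (SD, n = 2 here and for every ± on CPM or shares), and that of YAP1 counts 1.48% ± 0.0389 and 1.34% ± 0.114. The share of H3K27ac counts was 0.949% ± 2.7e-04 and 1.00% ± 0.0157. The libraries of the 2 groups did not overlap for any target, and the exact two-sided permutation test gave 0.333 for each, the smallest p that 2 against 2 libraries allow. Restricted to members that are at least 50% coding, the difference turned from -0.43 to 0.114 percentage points for CTCF and from -0.139 to 0.0307 for YAP1.

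Members were also compared with introns inside each library. Inside each library the median log2 CPM of tested members exceeded that of tested intronic intervals by 0.57 and 0.48 for CTCF in vehicle and by 0.76 and 0.84 in sorbitol, a difference of 0.28 (pooled SD 0.06). For RAD21 the excess went from 0.13 ± 0.05 to 0.32 ± 0.05 and for YAP1 from 0.23 ± 0.03 to 0.55 ± 0.16. The H3K27ac excess was 0.19 in both groups, with a difference of -0.0013. These offsets are per interval and not per length, and members were wider than introns (median 430.5 against 345 bp). The exact two-sided p was 0.333 for the first 3 targets and 1 for H3K27ac. Members that passed the count filter are not all members: CTCF had 1264, RAD21 396, YAP1 457 and H3K27ac 1482. With no filter the CTCF difference was -0.47, with GC-corrected values 0.03, and the median RAD21 count of tested members was 10 and 8 in the sorbitol libraries, where 1 count more moves the median by 0.12 and 0.15. The plot of responses by interval class shows members between introns and promoters for CTCF and RAD21.

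**Figure D1:**
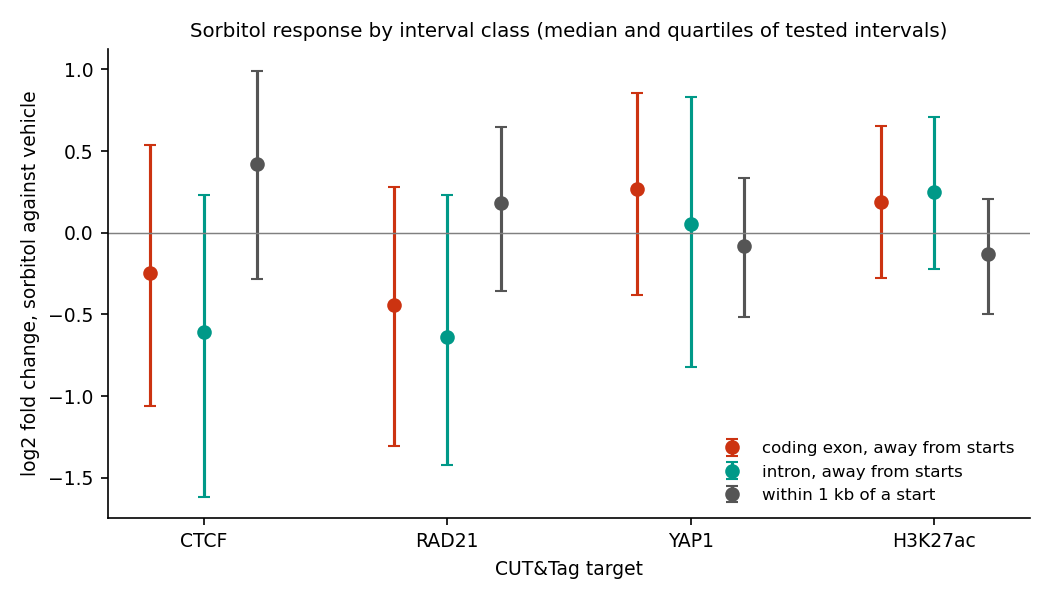
Log2 fold change, sorbitol against vehicle, by target (x axis) for tested coding exon members, intronic intervals and intervals within 1 kb of a start; points are medians and bars the quartiles over intervals, not errors over libraries. The member median lies between the other classes for CTCF (-0.25, against -0.61 at introns and 0.42 near starts) and RAD21 (-0.44, against -0.64 and 0.18), and above both for YAP1 (0.27).

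CTCF changed at many members in both directions. Of 1264 tested, 247 rose and 284 fell at an adjusted p under 0.05, where over all intervals tested 40.2% were called, 19.5% higher and 20.7% lower. Their median log2 fold change was -0.25, beside -0.06 over all tested intervals. The split depends on how libraries are scaled: scaled to total counts, which moves the median over all intervals to -1.04, 91 members were higher and 772 lower, and scaled to the weakest 25% of intervals 319 were higher and 202 lower. Over all intervals these scalings gave 2109 higher and 21042 lower, and 10225 and 5981. Higher and lower are therefore relative to the bulk of intervals.

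Among members above the median level, the largest CTCF rise was in the last coding exon of TMEM151B, a gene for a transmembrane protein, at chr6:44275583-44276288. The vehicle libraries had 1 and 0 counts there and the sorbitol libraries 127 and 114. That is a ratio of 648 with a 95% counting interval of 115 to 25685, adjusted p = 3.1e-13 in edgeR's quasi-likelihood test. The second was a stretch of the last exon of the zinc finger gene ZNF316 (chr7:6653739-6654433), with 3 and 0 counts in vehicle and 78 and 123 in sorbitol, a ratio of 180 (60.7 to 880). Both intervals were coding throughout and GC-rich, at 72.7% and 74.1%. A second ZNF316 member close by had 6 and 5 counts in vehicle and 68 and 90 in sorbitol, log2 fold change 5.22 ± 0.37 (SE). In each of these the groups were far apart, and the best CTCF consensus match of the first pair had 2 and 3 mismatches.

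FAM166A, a gene for a ciliary microtubule protein, and the neighbouring TUBB4B, a beta-tubulin gene, followed. The FAM166A interval at chr9:137243677-137244158 went from 11 and 1 counts to 233 and 260, log2 fold change 6.75 ± 0.28. The TUBB4B interval at chr9:137242304-137242694 went from 6 and 2 to 162 and 172, 6.75 ± 0.29. All vehicle counts were below all sorbitol counts by more than an order of magnitude.

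The 4 named falls went from moderate CTCF counts to nearly none, a start that the limit on mean level favours. TTC21A, whose product belongs to the ciliary transport machinery, had 128 and 79 counts in vehicle and 4 and 0 in sorbitol at chr3:39126342-39126885, a change of -4.21 ± 0.56. DMRT1, the testis transcription factor gene whose exon match is printed above, had 99 and 57 in vehicle and 0 and 6 in sorbitol, -3.24 ± 0.58. Its call was lost in DESeq2 (adjusted p = 0.12) and kept by edgeR under the other settings tried for it. DYNC1I1, a dynein intermediate chain gene, had 101 and 74 against 3 and 4 (-3.21 ± 0.47), and the magnesium transporter gene SLC41A1 94 and 78 against 4 and 3 (-3.19 ± 0.48). These falls lay at 49.0% to 54.4% GC, below all 4 named rises.

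**Figure D2:**
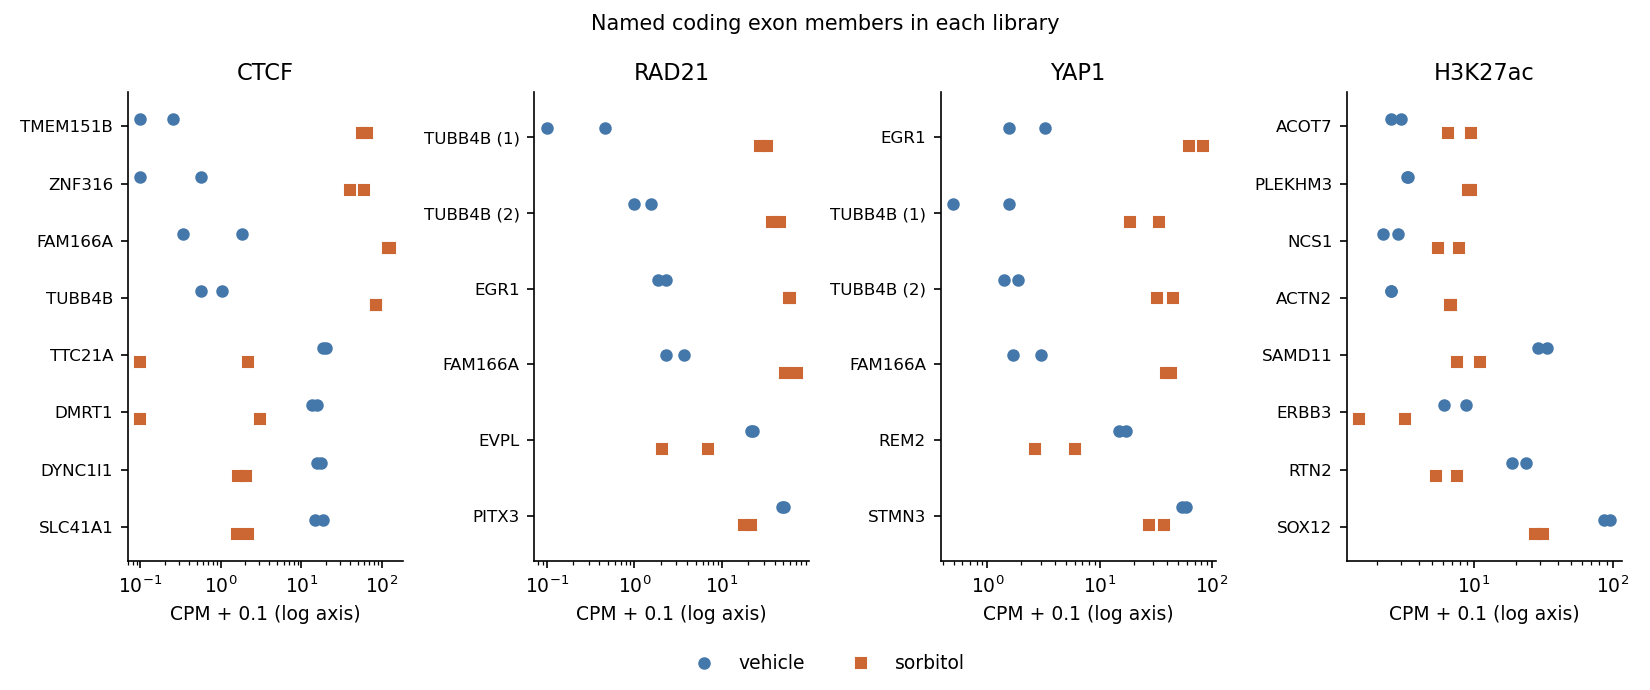
CPM + 0.1 on a log axis for the named members of each target, with 1 point per library (circles, vehicle; squares, sorbitol); numbers in brackets tell 2 members of 1 gene apart. Rises fill the upper rows and falls the lower rows of each panel, and vehicle and sorbitol points do not overlap in any of them, which the naming rule required.

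The CTCF responses of members varied with GC content. Among the 664 members of lowest GC content (28.8% to 52.1%), 396 were tested, of which 15 rose and 122 fell, with a median of -0.82. Among the 664 of highest GC content (61.5% to 81.0%), 439 were tested, of which 167 rose and 51 fell, with a median of 0.39. Inside each library the GC-rich members exceeded the GC-poor by 0.31 and 0.33 log2 units in vehicle and by 1.47 and 1.68 in sorbitol. The gap for RAD21 was 0.30 ± 0.02 in vehicle and 1.47 ± 0.34 in sorbitol, and that for YAP1 0.26 ± 0.08 and 1.08 ± 0.27. For H3K27ac it was 0.84 ± 0.03 and 0.83 ± 0.01. H3K27ac calls leaned the other way, with 25 rises and 5 falls among 373 GC-poor members (median 0.25) and 43 rises and 68 falls among 569 GC-rich members (median 0.05). The exact p was 0.333 for the first 3, the smallest possible, and 1 for H3K27ac. After GC-corrected offsets the CTCF medians of the GC-poorest, middle and GC-richest members were -0.13, -0.34 and -0.23. With them 212 members were higher and 284 lower, or 39.2% of those tested against 42.0% before. Over all tested intervals the share called went from 40.2% to 31.2%, with 5476 higher and 6767 lower. The correction was fitted over all tested intervals, and GC classes of other intervals were not compared.

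**Figure D3:**
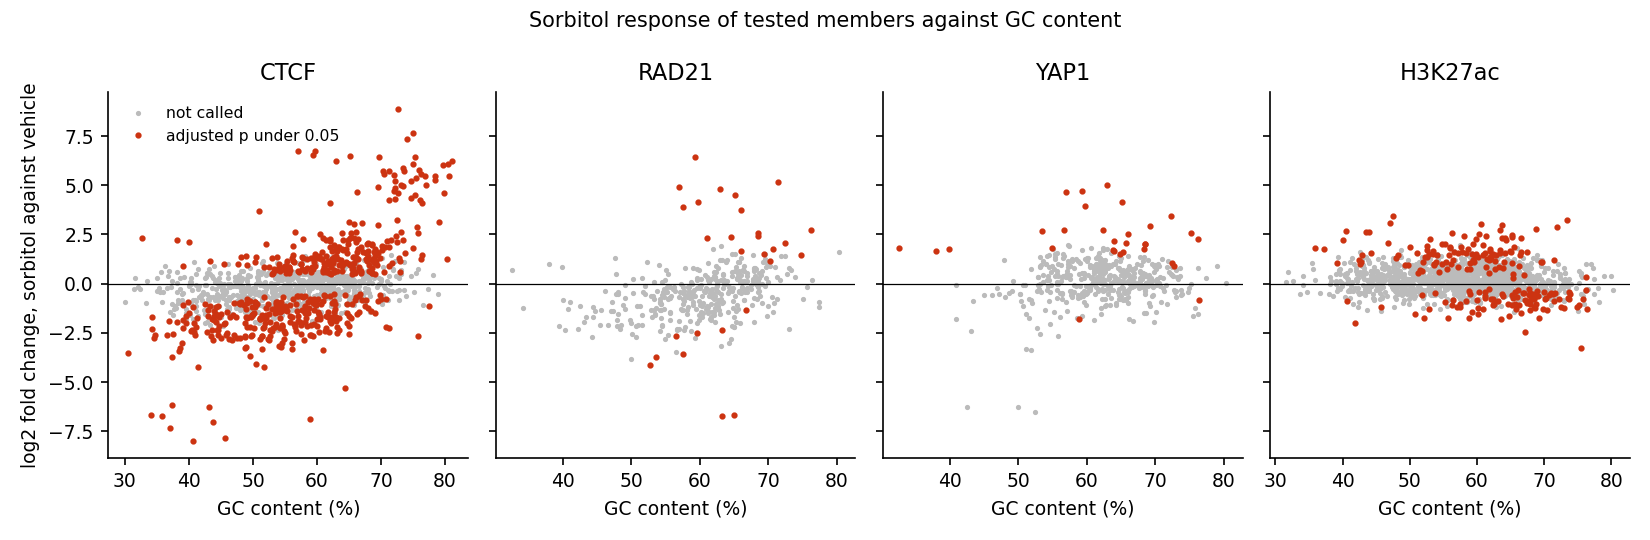
Log2 fold change, sorbitol against vehicle (y axis), of each tested member against its GC content in percent (x axis), with 1 panel per target and members at an adjusted p under 0.05 in red. CTCF rises concentrate at high GC (167 of 439 tested in the GC-richest members, 15 of 396 in the GC-poorest), while H3K27ac falls were 5 of 373 in the GC-poorest and 68 of 569 in the GC-richest.

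Members of 1 gene could differ in their CTCF response. RYR1, the calcium release channel of skeletal muscle, had 7 members, more than any other gene, all on chromosome 19. CTCF rose at the members on coding exons 48 (1.62 ± 0.39) and 57 (1.62 ± 0.20), where the counts of the latter were 139 and 68 in vehicle and 121 and 112 in sorbitol on libraries of smaller scaled size. CTCF fell at those on exons 31 (-1.37 ± 0.44), 87 (-0.70 ± 0.21) and 105 (-2.84 ± 0.95), the last with 31 and 11 counts in vehicle and 0 and 2 in sorbitol. The remaining pair, on exons 13 and 64, had 0.77 ± 0.54 and 0.01 ± 0.25 and were not called. The rising intervals had 67.2% and 66.3% GC and the falling ones 54.3%, 51.8% and 52.5%, while the uncalled ones had 68.1% and 59.0%. Other genes with several members were less clear. GRIK4 and HMCN2, with 4 each and not all tested for CTCF, had none called for it (lowest adjusted p = 0.0501 in edgeR). In SPTBN4 CTCF rose at 62.7% GC (1.98 ± 0.35) and was not called at 61.2% (-0.25 ± 0.28) and 61.7% (-0.51 ± 0.33). Its member at 75.5% GC was not tested. In RASA4B CTCF rose at 61.5%, 62.3% and 64.8% GC (2.19 ± 0.55, 1.24 ± 0.14 and 2.21 ± 0.37), at intervals with near-identical copies. It was not called at 63.75% (0.06 ± 0.13). Of the other targets only H3K27ac was called at a RYR1 member, on exon 87 (-0.59 ± 0.21).

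AJM1, an apical junction protein gene, has a single coding exon that held 4 members. CTCF rose at each, by 2.18 ± 0.15, 4.87 ± 0.19, 5.01 ± 0.25 and 6.43 ± 0.41 in genome order, and the first of them has a near-identical copy elsewhere. The counts of the second were 28 and 23 in vehicle and 281 and 280 in sorbitol, and those of the fourth 4 and 1 against 91 and 80. RAD21 had 0 to 6 counts in every library at the last 3 of these, and YAP1 rose at the second (3.46 ± 0.58). The gene with 5 members, ENSG00000188897, which has no symbol in the annotation, had CTCF called at 1 of them, on exon 54 at 60.9% GC (0.59 ± 0.22), and not on exon 12 at 75.7% GC (0.76 ± 0.36). On its exon 61 the RAD21 counts were 24 and 11 in vehicle and 0 in both sorbitol libraries, which passed the test, and on exon 12 H3K27ac fell (-0.78 ± 0.20).

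**Figure D4:**
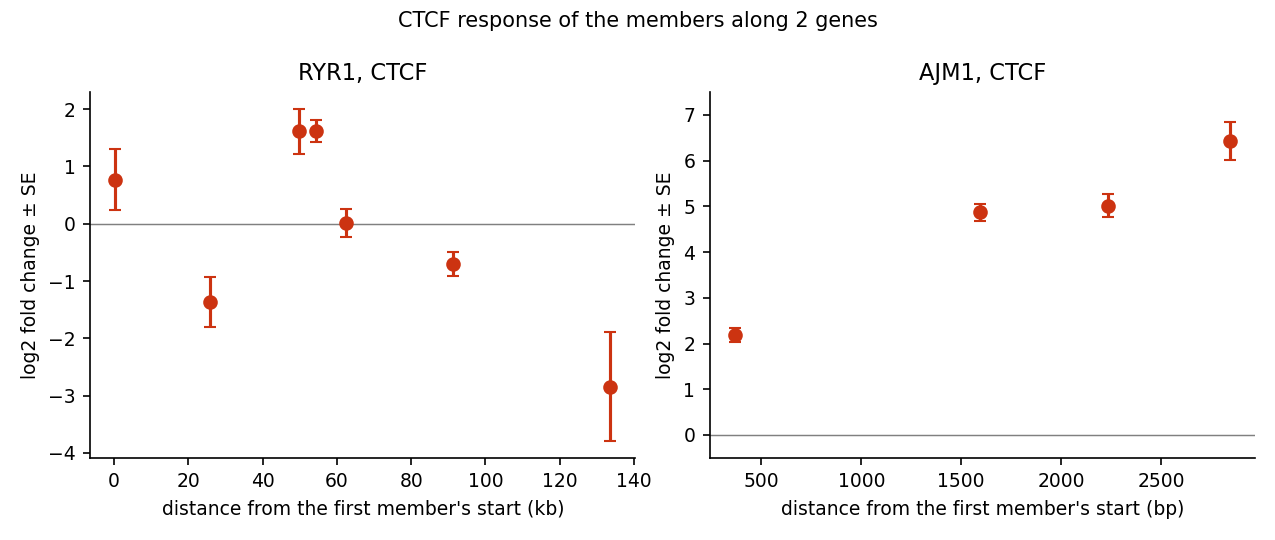
CTCF log2 fold change, sorbitol against vehicle, with its SE, for the members of RYR1 and AJM1 against distance from the first member's start (kb for RYR1, bp for AJM1). RYR1 members range from -2.84 to 1.62, and those of AJM1 from 2.18 to 6.43.

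Members were also split by the length of their coding exon, as a description with no test. Of 158 tested members on coding exons of at least 500 bp, 53 gained and 27 lost CTCF, and on shorter exons 194 gained and 257 lost it of 1106. Last coding exons gave 78 higher and 56 lower of 274. GC content moves with this class too, and after GC correction the CTCF medians of long and short exons were -0.29 and -0.25. For YAP1, 10 of the 28 rises fell on the 66 tested members with long exons, and for H3K27ac those exons gave 11 rises and 30 falls of 200.

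RAD21, the cohesin subunit, was tested at fewer members. Of 396 tested, 19 rose and 9 fell, where 4.79% of all tested intervals were called, 3.34% higher and 1.45% lower. The median was -0.44, beside -0.01 over all. Scaled to total counts, 11 were higher and 51 lower, and scaled to the weakest 25% of intervals 34 and 6. Over all intervals these scalings gave 270 higher and 1181 lower, and 1371 and 161. Members with the CTCF consensus had a median of -0.71 (185 tested, 2 higher) and those without it -0.15 (211 tested, 17 higher), a description with no test. The CTCF medians of members with and without the consensus were -0.23 and -0.25.

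Within the same limit on level, the largest RAD21 rises were at TUBB4B, EGR1 and FAM166A. Below it AIRE, an autoimmune regulator gene, also rose, from 0 and 1 counts to 14 and 10. At chr9:137242783-137243077 in the last exon of TUBB4B the counts were 1 and 0 in vehicle and 33 and 24 in sorbitol, a ratio of 116 (20.1 to 4674). At EGR1, an immediate early zinc finger factor gene, they were 6 and 2 against 59 and 53 at chr5:138466651-138467537, log2 fold change 4.79 ± 0.44, adjusted p = 1.4e-04 in edgeR. Other rises included SEMA6B, a semaphorin gene, with 74 and 28 counts against 140 and 116 (2.37 ± 0.28), IL17REL, with 123 and 22 against 178 and 247 (2.75 ± 0.38), and CACNA1I, a T-type calcium channel gene, at 2 members (3.77 ± 0.65 and 2.44 ± 0.49).

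RAD21 falls were fewer and less secure. EVPL, the gene of the cell envelope protein envoplakin, had 62 and 24 counts in vehicle and 2 and 6 in sorbitol, -2.35 ± 0.59 (adjusted p = 0.042 in edgeR), while CTCF there was 0.28 ± 0.18. PITX3, a homeodomain factor gene, had 141 and 54 against 18 and 19, -1.34 ± 0.33 (0.039). The adjusted p of EVPL rose to between 0.086 and 0.145 without either vehicle library or sorbitol library 1, and that of PITX3 to between 0.074 and 0.165 without any one of the 4. The difference between RAD21 and CTCF responses was itself past the threshold at EVPL, -2.56 ± 0.56, adjusted p = 0.018.

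YAP1 calls were nearly all rises. Among them are HDAC8, ZNF723 and ADH7, whose counts are mostly even numbers, and without these 3 there are 25. Of 457 tested members 28 rose and 2 fell, where 6.83% of tested intervals were called, 5.34% higher and 1.49% lower, and the median was 0.27 beside -0.04 over all. Scaled to total counts, which moves the median over all intervals to -1.46, only 6 were higher and 203 lower. Scaled to the weakest 25% of intervals, 23 were higher and 3 lower. Over all intervals these scalings gave 338 higher and 14465 lower, and 1083 and 487. EGR1 led, with 9 and 16 counts in vehicle and 140 and 73 in sorbitol, log2 fold change 5.01 ± 0.31 (adjusted p = 1.1e-08 in edgeR). The TUBB4B and FAM166A members followed, by 3.94 to 4.72. HES1, a repressor gene that responds to Notch, rose with 40 and 31 counts against 43 and 33 on the smaller scaled libraries (2.07 ± 0.31), and the GTPase gene RAC2 with 39 and 45 against 37 and 32 (1.68 ± 0.32).

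REM2, a small GTPase gene, and STMN3, a stathmin gene, lost YAP1. REM2 had 104 and 74 counts in vehicle and 10 and 3 in sorbitol (-1.80 ± 0.43, adjusted p = 0.014 in edgeR), and STMN3 332 and 299 against 46 and 44 (-0.83 ± 0.22, 0.027). Neither call held without either vehicle library. At STMN3 CTCF rose by 1.46 ± 0.15, and the difference between the responses was -2.46 ± 0.29, adjusted p = 1.6e-09.

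H3K27ac, the mark of active promoters and enhancers, changed in both directions. Of 1482 tested members 120 rose and 96 fell, where 23.1% of tested intervals were called, 8.59% higher and 14.5% lower. The median was 0.19 beside 0.02 over all, and 0.25 at introns. Scaled to total counts 193 were higher and 64 lower, and scaled to the weakest 25% of intervals 57 and 196. Over all intervals these scalings gave 8117 higher and 5901 lower, and 1854 and 14666. With GC-corrected offsets 156 were higher and 74 lower. The largest named rise was at ACOT7, an acyl-CoA thioesterase gene, with 18 and 15 counts in vehicle and 88 and 52 in sorbitol, 1.58 ± 0.33, and PLEKHM3 rose from 20 and 20 to 88 and 72 (1.503 ± 0.30). NCS1, a neuronal calcium sensor gene (1.44 ± 0.36), and ACTN2, the alpha-actinin of the muscle Z-disc (1.44 ± 0.35), were next. NCS1 lost its call without sorbitol library 1 (adjusted p = 0.081), and the ACTN2 interval holds only 2 coding bases.

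The named H3K27ac falls started from higher levels than the named rises, which the limit on mean level over both groups favours. SAMD11 had 207 and 177 counts in vehicle and 69 and 89 in sorbitol, -1.76 ± 0.18. SOX12, a SOX family factor gene whose interval reaches within 1058 bp of a start, had 539 and 579 against 290 and 222, -1.62 ± 0.10. ERBB3, a receptor tyrosine kinase gene, fell by 1.73 and RTN2, a reticulon gene, also by 1.73 on the log2 scale. ZNF703, which had the highest vehicle level, fell from 870 and 863 counts to 583 and 505 (-1.16 ± 0.08). Groups that do not overlap were a condition for naming the first 4.

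The responses of the targets were set side by side. Across the 393 members tested for both, the CTCF and RAD21 log2 fold changes had a Pearson correlation of 0.70 (Spearman 0.68). For CTCF and YAP1 it was 0.43 over 417 (Spearman 0.23), and for CTCF and H3K27ac -0.06 over 966 (Spearman -0.06). Members are not independent replicates, and their values for the first 3 targets share the GC trend above, so these carry no p. CTCF and RAD21 rose together at 15 members and fell together at 5, or 3.82% and 1.27%, beside 3.01% and 1.15% of all intervals tested for both.

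**Figure D5:**
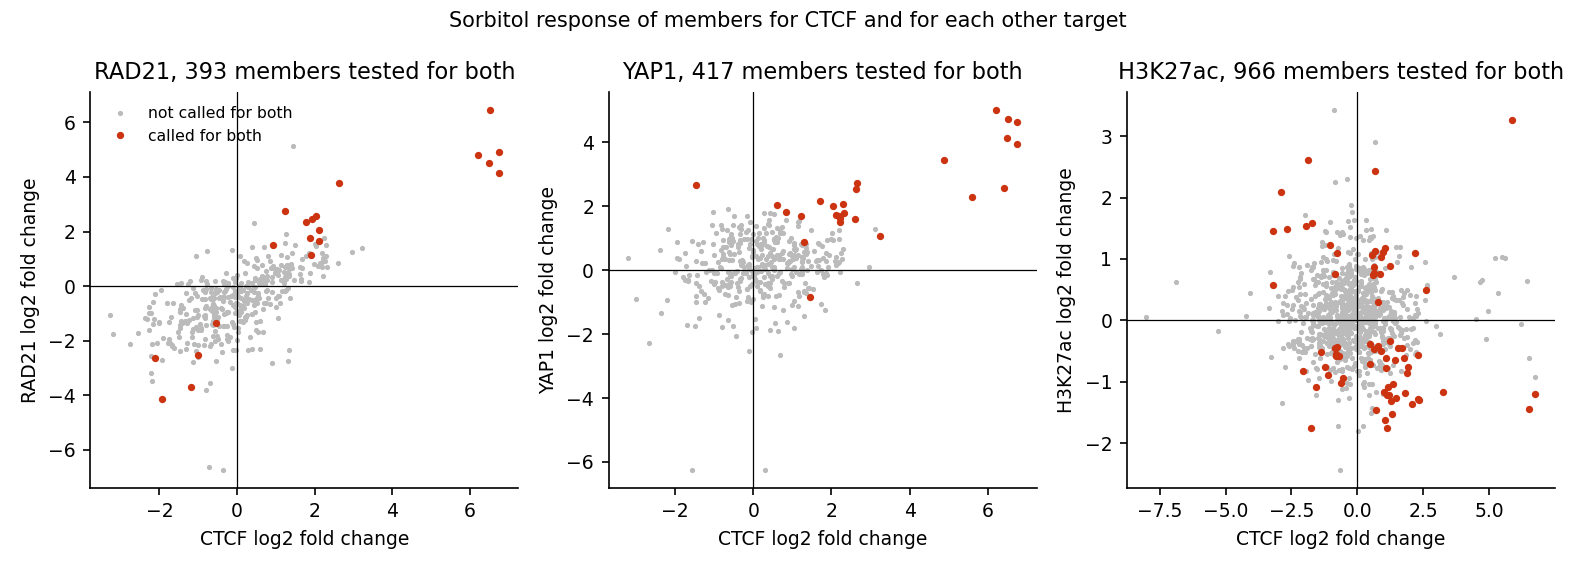
Log2 fold change, sorbitol against vehicle, of members for RAD21, YAP1 and H3K27ac (y axes) against that for CTCF (x axis), with members called for both targets in red. The 15 members higher for CTCF and RAD21 lie upper right in the first panel, while in the H3K27ac panel 33 members are higher for CTCF and lower for H3K27ac.

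Among 272 members tested for CTCF, RAD21 and YAP1, 7 rose for each of them, or 2.57%, beside 2.12% of all intervals tested for these 3: 2 in TUBB4B, 2 in FAM166A and 1 each in EGR1, CACNA1I and IQSEC3. The TUBB4B and FAM166A members are neighbours on chromosome 9 between 137242304 and 137245809, and CTCF rose by 6.50 to 6.75 at all 4. H3K27ac there was -1.20 ± 0.34 and -1.44 ± 0.41 at the TUBB4B members (adjusted p = 0.009 and 0.0088 in edgeR) and -0.93 ± 0.36 and -0.62 ± 0.34 at the FAM166A members (0.0603 and 0.196). The interval at the TUBB4B start itself, chr9:137240319-137241352, rose less for CTCF (1.81 ± 0.18) and had 211 and 176 YAP1 counts in vehicle and 74 and 35 in sorbitol (0.12 ± 0.22), while its H3K27ac fell by 1.57. A second interval, 334 bp from the TUBB4B start and so no member, rose like the members, by 5.26 ± 0.24 for CTCF, 4.90 ± 0.49 for RAD21 and 4.03 ± 0.28 for YAP1, and its H3K27ac fell by 1.94. At EGR1 H3K27ac was -0.05 ± 0.37 in the exon and -1.34 ± 0.08 at the start interval, where CTCF rose by 1.94 ± 0.12. IQSEC3, an ARF exchange factor gene, rose by 2.04, 2.56 and 2.01 for CTCF, RAD21 and YAP1, at 68.6% GC.

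Of the 966 members tested for CTCF and H3K27ac, 33 were higher for CTCF and lower for H3K27ac, or 3.42%, and 10 were lower for CTCF and higher for H3K27ac, or 1.04%. Over all intervals tested for both the shares were 8.90% and 1.06%. The 33 lay a median of 2148 bp from a start with a median GC content of 66.9%, and the 10 lay 7573 bp away with 54.2%. HES1 is among the first, with CTCF counts of 95 and 52 in vehicle and 127 and 141 in sorbitol (2.30 ± 0.19) and H3K27ac counts of 260 and 277 against 158 and 151 (-1.28 ± 0.13). ZNF703, SOX12, SAMD11, STMN3 and both TUBB4B members belong to it as well. SLC41A1, DYNC1I1 and ACOT7 belong to the second, with H3K27ac changes of 1.46, 0.58 and 1.58. ACTA2, the smooth muscle actin gene, is another, with CTCF counts of 401 and 280 against 70 and 54 (-1.03 ± 0.18) and H3K27ac counts of 18 and 25 against 79 and 63 (1.23 ± 0.31).

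The response to sorbitol was compared between targets with an interaction test. Its count filter took the 8 libraries of a pair together, so members could enter through CTCF counts alone. Only 396 members passed the filter for RAD21 on its own, and 457 for YAP1. Some calls therefore set a CTCF change against few counts of the other target, as at EPYC, with 0 to 2 YAP1 counts a library. RAD21 was called different from CTCF at 18 of 1279 members, above it at 3 and below it at 15. Over all intervals 0.83% were called, 0.127% above and 0.704% below. CHADL, a gene for a chondroadherin-like protein, had CTCF counts of 11 and 7 in vehicle and 146 and 184 in sorbitol. Its RAD21 counts, which did not pass their own filter, were 11 and 2 against 8 and 4, a difference of -4.55 ± 0.77 (adjusted p = 0.0015 in edgeR). The 3 above were IL17REL (1.56), SPI1 (1.67) and SEC16B (2.28). At SPI1, the gene of the blood cell factor PU.1, CTCF went from 341 and 278 counts to 39 and 47 and RAD21 from 79 and 29 to 32 and 25. YAP1 was called different from CTCF at 159 of 1331 members, above at 79 and below at 80, where 11.6% of all intervals were called, 3.59% above and 7.97% below. That split was 82 and 35 with GC-corrected offsets and 50 and 105 scaled to total counts. TMEM151B was below, by 6.82 ± 1.04 on the log2 scale, with YAP1 counts of 8 and 6 in vehicle and 12 and 4 in sorbitol. Those YAP1 counts did not pass their own filter. LRRC43, a leucine-rich repeat gene, was above, by 3.98 ± 0.71: CTCF fell there (-1.48) and YAP1 rose (2.68).

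The gene lists reach few members, and their counts stand beside 19.5% higher and 20.7% lower over all intervals tested for CTCF, and 8.59% and 14.5% for H3K27ac. Of 55 immediate early and stress genes, 8 had a member, 9 in all. CTCF rose at 2 of the 6 tested, EGR1 (6.22 ± 0.21) and the phosphatase gene DUSP4 (0.86 ± 0.21), with a list median of 0.67. H3K27ac rose at 1 of 8, in the taurine transporter gene SLC6A6 (1.36 ± 0.47), and fell at 1, in ZFP36L2, an mRNA decay factor gene (-0.83 ± 0.19). Only EGR1 of this list passed the count filter for RAD21 and YAP1. Of 22 YAP target genes 3 had a member, and none of these passed the filter for YAP1 binding. CTCF fell at AJUBA, a LIM protein gene, by 1.51. Of 28 members in genes with zinc finger symbols, in 26 genes, 17 were tested for CTCF, and 9 rose and 1 fell, with a median of 0.99. ZNF771 (2.64 ± 0.40) and ZNF777 (4.598 ± 0.85) are examples of the rises and ZNF503 (-0.80 ± 0.27) is the fall. Another of the 9, ZNF723 (2.32 ± 0.16), has mostly even counts. Of 22 members in developmental transcription factor genes 17 were tested for H3K27ac, and 1 rose and 3 fell.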

How the data were processed

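CUT&Tag counts were analysed for 16 libraries. The deposited table holds raw counts per interval, whole numbers that were not scaled between libraries per the file headers and values. Per the submitters' processing notes, the tools used included Trim Galore, BWA 0.7.17, Picard, MACS2 2.2.6 and bedtools 2.31.1, and the build was hg38. Whether the peak calls behind the intervals used single or pooled libraries is not given in the sources used here.

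The table counts starts from 0 and positions here count from 1, and annotation came from GENCODE release 44. Each target was tested separately on its 4 libraries over all intervals with edgeR 4.0.16 in R 4.3.3 (robust quasi-likelihood, two-sided, TMM, filterByExpr minimum of 10 counts), with Benjamini-Hochberg adjustment over all tested intervals and a threshold of 0.05. Differences between targets were interactions over 8 libraries, with the count filter applied to these together. The step was tested on simulated data. The SE given for a log2 fold change or difference is its absolute value over the square root of the quasi-likelihood F statistic. Library offsets use a prior count of 2. Copies were searched with blastn 2.17.0. Where a group held 1 to 3 counts a ratio of summed counts is given with its 95% exact interval, which covers counting error only, since PCR copies are not independent molecules.

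For each target the named members are the 4 strongest rises and 4 strongest falls past the threshold, with mean CPM above the median of tested intervals and no overlap between the CPM of the sorbitol and the vehicle libraries. For RAD21 and YAP1 only 2 falls qualified. The 2 highest vehicle levels per kb, the genes with most members and called immediate early genes were added. Other genes named were chosen after their values were seen. The members and lists were chosen with earlier results of these data known. Alternatives were DESeq2 1.42.0, other scalings and filters, a replicate block, GC-corrected offsets (lowess, span 0.3), other member definitions and each library left out.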

Additional observations from a re-analysis of the deposited data

Results flagged for a closer look

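The sorbitol response was called different between targets at some members, by the interaction test itself. Members could enter this test through CTCF counts alone, with few RAD21 or YAP1 counts. RAD21 differed from CTCF at 18 members, with 3 above and 15 below, or 1.41% of 1279, beside 0.83% over all intervals. YAP1 differed from CTCF at 159 members, with 79 above and 80 below, or 11.95% of 1331, a share near the 11.6% over all intervals. With GC-corrected offsets 82 were above and 35 below, beside 1480 and 1446 over all intervals.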

How the results depend on the processing

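Scaled to total counts, the members called numbered 863 for CTCF, 62 for RAD21 and 209 for YAP1, and those with a different response 5 for RAD21 against CTCF. The first 3 were 68.3%, 15.7% and 45.7% of tested members, beside 59.0%, 8.53% and 65.0% of all tested intervals. The last was 0.391% beside 0.326%. Fewer intervals were tested with a mean of at least 50 counts. The numbers were then 254 for CTCF, 7 for RAD21, 10 for YAP1, 109 for H3K27ac and 70 for YAP1 against CTCF. Those were 56.82%, 29.17%, 19.61%, 33.85% and 31.39% of tested members, beside 55.51%, 31.27%, 21.75%, 46.64% and 24.96% of all tested intervals. In a single fit of all 16 libraries the members called were 92 for RAD21, 53 for YAP1 and 59 for H3K27ac, and DESeq2 called 89 for H3K27ac. The single fit called 5.82%, 3.35% and 3.73% of members, beside 4.91%, 5.79% and 6.43% of all intervals. DESeq2 called 9.04% beside 18.5%. With GC-corrected offsets H3K27ac was higher at 156 and lower at 74 members, and YAP1 above CTCF at 82 and below at 35. Over all intervals these numbers were 6011 and 6588 for H3K27ac, and 1480 and 1446 for YAP1 against CTCF. The cause of these changes was not tested.

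Leaving out each library in turn gave 361 to 511 members for CTCF and 23 to 49 for RAD21. The range was 17 to 49 for YAP1 and 130 to 186 for H3K27ac. The lone library of a group was then assumed to vary like the others. The shares called over all tested intervals moved in the same directions as these counts. More members passed the filter in each of these fits, so the counts are not shares of a fixed number. Without either sorbitol library the share of tested members called for YAP1 fell, while that over all intervals rose. The RAD21 count rose to 49 without sorbitol library 1 and 43 without sorbitol library 2. The YAP1 count was 17 and 18 without vehicle libraries 1 and 2 and 49 without sorbitol library 2, and that of H3K27ac 137 and 130 without sorbitol libraries 1 and 2. Without the dominant intervals (off chromosomes 1 to 22 and X, in the YAP1 gene or above 0.1% of a library), a choice made after seeing the data, 540, 23, 25 and 216 members were called for CTCF, RAD21, YAP1 and H3K27ac.

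Same-numbered libraries showed no shared deviation: their deviations from the group means correlated at -0.0086, -0.0048, 0.0054 and -0.0054 for CTCF, RAD21, YAP1 and H3K27ac. With 2 libraries a group, this does not show whether same-numbered libraries shared a culture or run. With a replicate block 478, 17, 24 and 222 members were called, and with a block and GC-corrected offsets 427, 26, 22 and 224. With the block these were 37.82%, 4.293%, 5.252% and 14.98% of tested members, beside 35.16%, 2.769%, 5.829% and 23.45% of all tested intervals. With both they were 33.78%, 6.566%, 4.814% and 15.11%, beside 26.08%, 4.55%, 5.952% and 22.37%.

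The offset of members from introns, sorbitol minus vehicle, depended on the settings. With no filter it was -0.473 for CTCF, -0.0202 for RAD21, 0.0309 with the GFP antibody (YAP1) and 0.0318 for H3K27ac. Over intervals averaging 50 counts or more it was 0.161, -0.502, -0.695 and -0.209 in the same order. With GC-corrected values it was 0.0253 for CTCF, -0.0739 for RAD21 and 0.0937 for H3K27ac. For members at least 50% coding it was 0.83 for CTCF, 0.49 for RAD21 and 0.52 for YAP1. Over 5 kb from a start it was 0.14 for CTCF, 0.11 for RAD21 and 0.0691 for H3K27ac. With means in place of medians, chosen after seeing the data, it was 0.46 for CTCF and 0.11 for RAD21. Leaving out each library gave 0.23 to 0.32 for CTCF, 0.15 to 0.22 for RAD21, 0.20 to 0.42 for YAP1 and -0.0412 to 0.0385 for H3K27ac, where the sign turned without vehicle library 2 (0.0385) and without sorbitol library 1 (0.0115). Leaving out members with a near-identical copy, also chosen later, gave 0.27, 0.18, 0.31 and -0.0013.

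The change in the share of counts was -1.005 percentage points for CTCF and -0.346 for YAP1 with all intervals in the denominator. For members at least 50% coding the CTCF change was 0.114, that of RAD21 -0.0387, that of YAP1 0.0307 and that of H3K27ac 0.0041. Leaving out each library gave -0.536 to -0.324 for CTCF, -0.606 to -0.233 for RAD21, -0.219 to -0.0584 for YAP1 and 0.0403 to 0.0625 for H3K27ac.

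Of 250 values of the 28 named rises and falls under alternatives, 233 kept direction and call, 17 kept direction only and 0 turned.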

Other observations

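Members in HDAC8, a lysine deacetylase gene, ZNF723 and ADH7, an alcohol dehydrogenase gene, were 378, 380 and 381 bp wide and had high counts with the CTCF, RAD21 and GFP antibodies. They are among the members called higher for CTCF (2.13, 2.32 and 2.21) and for YAP1 (1.74, 1.81 and 1.64), and without them the rises number 244 and 25. HDAC8 and ZNF723 had the highest vehicle levels of all members for YAP1, at 192 and 190 CPM per kb, and for RAD21, at 234 and 150. YAP1 counts of ZNF723 were 428 and 378 in vehicle and 384 and 326 in sorbitol. Of the counts of at least 10 at these 3 members, 91.7% were even numbers, against 52.0% over all members. Among all 798 intervals of about this width 50 exceeded 100 CPM per kb, or 6.27%, against 60 of 73177 intervals of other widths, or 0.082%. These members were chosen after their values were seen, and their GC content was 32.63% to 39.95%.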
